A study of Mus musculus with 12 samples.

Results

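The genes described here are 10 genes of epithelial adhesion and epithelial identity: Cdh1, Epcam, Cldn3, Cldn4, Cldn7, Ocln, Esrp1, Esrp2, Grhl2 and Ovol1. They were chosen by name from the 56748 genes of the deposited count table, with earlier results of these data known. All 10 were in the table, and all 10 passed the filter on low counts that left 20229 genes for testing.

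The RNA came from whole mouse lung, in 12 libraries with 4 in each of 3 groups. The S1pr1 KO group carried MMTV-Cre, S1pr1fl/fl and MMTV-PyMT, the C3 KO group carried MMTV-Cre, the allele labelled C3Tdt and MMTV-PyMT, and the WT group carried MMTV-Cre and MMTV-PyMT without either conditional allele. Every group therefore had both transgenes, including the controls, and all lungs were taken at 4.5 months and are labelled as lung metastasis. The mouse mammary tumour virus (MMTV) promoter drives both Cre recombinase and the polyoma middle T oncogene (PyMT). It is active mainly in mammary epithelium, so a deletion need not be visible in RNA of the whole lung. S1pr1 encodes a receptor for sphingosine 1-phosphate and C3 the central component of complement. The study asked how their conditional loss bears on lung metastasis in this model. The labels do not state whether each library is a different animal. The p-values therefore reflect only how far these libraries differ, which may be technical.

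Epithelial cells are held together by adherens junctions, built on the cadherin Cdh1, and by tight junctions, built on claudins and occludin, which seal the space between cells. Esrp1 and Esrp2 are RNA-binding proteins of epithelial cells that set an epithelial pattern of exon use. Grhl2 and Ovol1 are transcription factors that support this state, and repressors such as Zeb1 oppose it. In lung the epithelium lines airways and alveoli, and carcinoma cells that reach the lung can express the same genes. In RNA from whole tissue, fewer cells of a type and less RNA per cell cannot be told apart.

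Total counts ranged from 32274797 to 53063470 per library, and log2 expression correlated between libraries at 0.963 to 0.988 (Pearson). Lung markers were present throughout: the lowest level of Sftpc, the surfactant protein of alveolar type 2 cells, was 9411 CPM and that of Ager, of alveolar type 1 cells, was 1698 CPM. CPM is the read count of a gene relative to the TMM-scaled total of its library. The targeted genes did not follow the labels in every library. C3 was at 475, 465, 601 and 1416 CPM in the C3 KO libraries, against 1025, 787, 903 and 799 CPM in WT, so the library labelled C3 KO 4 lay above every WT library. S1pr1 was at 132, 366, 142 and 154 CPM in the S1pr1 KO libraries, against 295, 491, 319 and 330 CPM in WT, so the library labelled S1pr1 KO 2 lay within the WT range. Results that rest on these 2 libraries are given below with and without them.

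None of the 10 genes passed the test in any comparison, which used edgeR's quasi-likelihood test with Benjamini-Hochberg adjustment over all genes tested and a threshold of 0.05. Between S1pr1 KO and WT lungs 0 of 10 passed, where 1.35% of all genes tested did. Between C3 KO and WT lungs 0 of 10 passed, where 0.00989% of all genes did. Between S1pr1 KO and C3 KO lungs 0 of 10 passed, where 0.0% did. At an unadjusted edgeR p under 0.05, 2 of 10 were higher in S1pr1 KO than in WT, as were 9.94% of all genes, and 0 of 10 were higher in C3 KO than in WT, as were 5.87%. Between S1pr1 KO and C3 KO 2 of 10 were higher in S1pr1 KO, as were 6.58% of all genes. By limma voom with sample quality weights none of the 10 was called, where 4.59%, 0.104% and 0.178% of all genes were called in S1pr1 KO against WT, in C3 KO against WT and between the knockouts. By DESeq2 only Cldn4 was called, in both comparisons of S1pr1 KO lungs. DESeq2 called 6.32% of all genes in S1pr1 KO against WT, 0.85% in C3 KO against WT and 1.57% between the knockouts.

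The members differed in level far more than the groups did. Levels of different genes are compared here as FPKM, the deposited values scaled by gene length. Cldn3 stood at 98.6 ± 14.4 FPKM and Cdh1 at 68.2 ± 5.19 FPKM (mean and SD, n = 12). Epcam stood at 30.3 ± 3.79 FPKM, Cldn7 at 21.7 ± 2.32 FPKM and Ocln at 13.4 ± 0.804 FPKM. These 5 genes of the cell surface were above all 4 of the splicing and transcription factor genes, while the surface gene Cldn4 was lower, at 3.09 ± 0.877 FPKM. The splicing factor Esrp2 was at 9.40 ± 1.19 FPKM and its paralog Esrp1 at 4.61 ± 0.480 FPKM. The transcription factors were lowest, with Grhl2 at 2.89 ± 0.370 FPKM and Ovol1 at 0.563 ± 0.201 FPKM. Each gene was above the next in this order in 12 of 12 libraries, except that Cldn4 was above Grhl2 in 6 of 12.

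**Figure D1:**
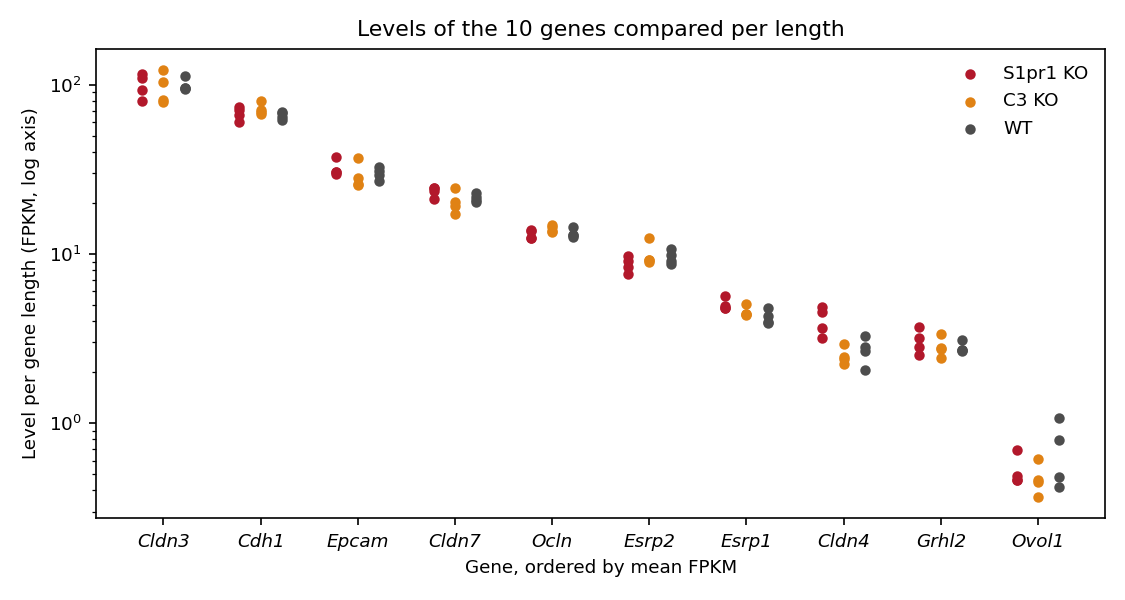
Level of each gene in FPKM (log axis) in each of the 12 lung libraries, with S1pr1 KO, C3 KO and WT libraries side by side and genes ordered by their mean. The order runs from Cldn3 (98.6 FPKM) to Ovol1 (0.563 FPKM), and the 3 genotypes overlap for nearly every gene.

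Cdh1 (E-cadherin, chr8:107329983-107396878 on the plus strand of GRCm39, the build of the deposited table) joins neighbouring epithelial cells at adherens junctions. Its levels were 303, 335, 276 and 324 CPM in S1pr1 KO lungs, 317, 323, 305 and 364 CPM in C3 KO lungs, and 317, 296, 285 and 311 CPM in WT lungs. The 3 groups overlapped, and the highest value was in the library labelled C3 KO 4. Fitted log2 fold changes were 0.03 in S1pr1 KO against WT (95% interval -0.13 to 0.20) and 0.11 in C3 KO against WT (95% interval -0.05 to 0.27). They were -0.01 without the library labelled S1pr1 KO 2 and 0.06 without C3 KO 4.

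Epcam (chr17:87943407-87958557, plus strand), an epithelial surface glycoprotein that binds its own kind on neighbouring cells, measured 67.7, 64.6, 67.7 and 83.0 CPM in S1pr1 KO lungs, 61.5, 57.0, 55.8 and 80.1 CPM in C3 KO lungs, and 59.7, 64.5, 71.4 and 67.8 CPM in WT lungs. Library 4 of each knockout stood above the rest of its group, and the groups overlapped. Epcam had a fitted log2 fold change of 0.10 in S1pr1 KO against WT (95% interval -0.15 to 0.35), 0.02 without S1pr1 KO library 4 and 0.14 with the library labelled S1pr1 KO 2 left out. The C3 KO value against WT was -0.05 over all libraries and -0.18 with the library labelled C3 KO 4 left out.

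**Figure D2:**
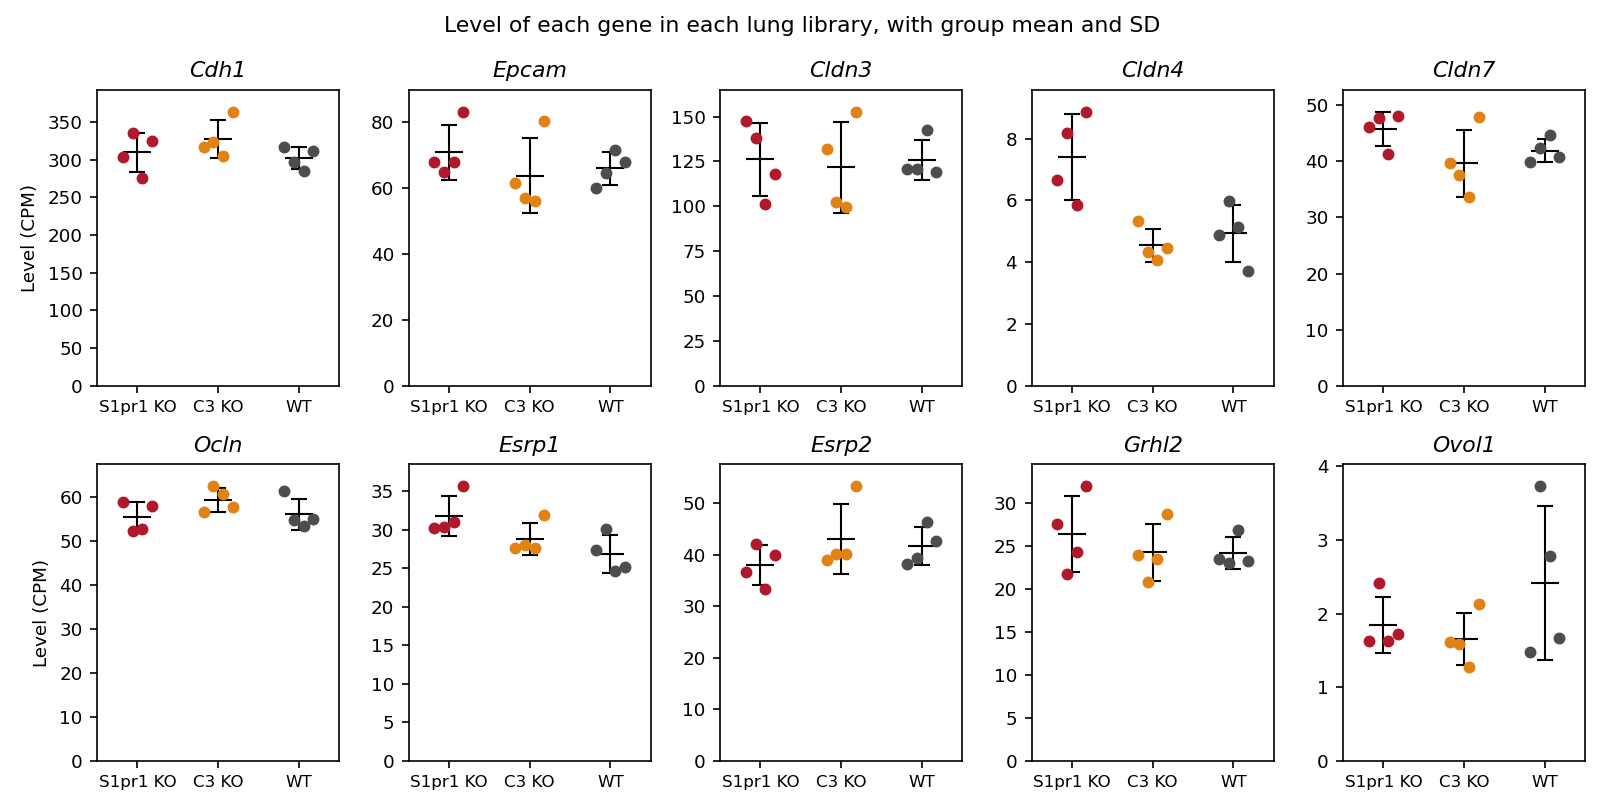
Level of each of the 10 genes in CPM in every library, grouped as S1pr1 KO, C3 KO and WT, each panel with its own axis from 0; points are libraries 1 to 4 from left to right and bars give the mean and SD. Cldn4 in S1pr1 KO lungs (5.84 to 8.88 CPM) lies above all C3 KO libraries and above 3 of the 4 WT libraries, and Ovol1 has its widest spread in WT lungs.

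The claudins span the membrane and form the strands of tight junctions. Cldn4 was the member with the largest difference involving S1pr1 KO lungs. Its levels were 6.65, 8.20, 5.84 and 8.88 CPM in S1pr1 KO lungs, 5.32, 4.33, 4.08 and 4.45 CPM in C3 KO lungs, and 4.89, 5.98, 5.15 and 3.73 CPM in WT lungs. Every S1pr1 KO library was above every C3 KO library, as was so for 3.55% of all genes tested. Against WT the ranges overlapped, because the lowest S1pr1 KO library (5.84 CPM) was below the highest WT library (5.98 CPM). The means were 7.39 ± 1.39 CPM in S1pr1 KO, 4.55 ± 0.539 CPM in C3 KO and 4.94 ± 0.930 CPM in WT lungs (SD, n = 4 each).

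In S1pr1 KO against WT the fitted log2 difference of Cldn4 was 0.58 (SE 0.17, 95% interval 0.21 to 0.95), with an edgeR adjusted p of 0.102. Against C3 KO it was 0.70 (SE 0.17, 95% interval 0.33 to 1.07), with an edgeR adjusted p of 0.196. DESeq2 gave adjusted p-values of 0.0263 and 0.0158 for the same contrasts, so the call depended on the tool. These comparisons share the S1pr1 KO libraries. Between C3 KO and WT the Cldn4 value was -0.12 (95% interval -0.49 to 0.25), and -0.11 without the library labelled C3 KO 4. Without the library labelled S1pr1 KO 2 the value against WT was 0.53, and without the library labelled C3 KO 4 the value against C3 KO was 0.69. The gene had 136 to 351 reads per library, the fewest of the members after Ovol1.

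Cldn3 (chr5:135015068-135016326, plus strand) and Cldn4 (chr5:134973973-134975788, minus strand) lie 39279 bases apart on chromosome 5. Cldn3 measured 147, 138, 102 and 118 CPM in S1pr1 KO lungs, 132, 102, 99.8 and 153 CPM in C3 KO lungs, and 121, 121, 142 and 119 CPM in WT lungs. The knockout groups spread on both sides of the WT libraries. Its log2 fold change in S1pr1 KO against WT was 0.01 (95% interval -0.31 to 0.32), and -0.04 without the library labelled S1pr1 KO 2, its sign changing with the settings. Between C3 KO and WT the value was -0.05 (95% interval -0.36 to 0.27), and -0.17 with the library labelled C3 KO 4 left out. The ratio of Cldn4 to Cldn3 in FPKM was 0.0313 to 0.0521 in S1pr1 KO, 0.0202 to 0.0293 in C3 KO and 0.0217 to 0.0342 in WT lungs.

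Cldn7 (chr11:69855605-69858711, plus strand) measured 46.0, 47.6, 41.4 and 48.0 CPM in S1pr1 KO lungs, 39.6, 37.6, 33.5 and 47.8 CPM in C3 KO lungs, and 39.8, 42.4, 44.7 and 40.8 CPM in WT lungs. Of the 4 S1pr1 KO libraries, 3 were above every WT library, and the library labelled C3 KO 4 stood with them. The log2 fold change was 0.13 in S1pr1 KO against WT (95% interval -0.08 to 0.33) and 0.21 against C3 KO (95% interval 0.00 to 0.41), with edgeR adjusted p-values of 0.525 and 0.412. The value against WT was 0.11 with the library labelled S1pr1 KO 2 left out. With the library labelled C3 KO 4 left out the difference from C3 KO was 0.31, with an edgeR adjusted p of 0.146. Between C3 KO and WT the value was -0.08, and -0.18 without that library.

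Ocln (occludin, chr13:100633015-100689226, minus strand), a membrane protein of tight junctions, varied least of the members, with a coefficient of variation of 6.03% over the 12 libraries. Its levels were 59.0, 52.2, 52.8 and 57.9 CPM in S1pr1 KO lungs, 56.7, 62.5, 60.6 and 57.7 CPM in C3 KO lungs, and 61.3, 54.7, 53.4 and 55.0 CPM in WT lungs. All 3 groups overlapped. Ocln had log2 fold changes of -0.02 in S1pr1 KO against WT (95% interval -0.15 to 0.12) and 0.08 in C3 KO against WT (95% interval -0.06 to 0.22). They were 0.01 without the library labelled S1pr1 KO 2 and 0.10 without C3 KO 4.

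The splicing factor genes had values of opposite sign in S1pr1 KO against WT, neither of which passed the test. Esrp1 (chr4:11331933-11386783, minus strand) measured 30.3, 30.3, 31.1 and 35.7 CPM in S1pr1 KO lungs, 27.6, 28.1, 27.7 and 31.9 CPM in C3 KO lungs, and 27.4, 30.1, 24.7 and 25.2 CPM in WT lungs. In CPM every S1pr1 KO library was above every WT library, by a narrow margin, as was so for 6.16% of all genes tested. In FPKM these groups overlapped, with WT library 2 at 4.78 FPKM and S1pr1 KO library 1 at 4.76 FPKM. The log2 fold change against WT was 0.25 (SE 0.08, 95% interval 0.07 to 0.42), with an edgeR adjusted p of 0.144, and 0.27 with the library labelled S1pr1 KO 2 left out. Between C3 KO and WT the value was 0.10 (95% interval -0.08 to 0.28), and 0.05 with the library labelled C3 KO 4 left out.

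Esrp2 (chr8:106856951-106863606, minus strand) measured 36.7, 42.1, 33.3 and 39.9 CPM in S1pr1 KO lungs, 39.0, 40.2, 40.1 and 53.3 CPM in C3 KO lungs, and 38.1, 39.4, 46.4 and 42.6 CPM in WT lungs. The groups overlapped, and the library labelled C3 KO 4 was above every other library. Esrp2 had a log2 fold change of -0.13 in S1pr1 KO against WT (95% interval -0.37 to 0.10), and -0.185 with the library labelled S1pr1 KO 2 left out. Its C3 KO value against WT was 0.05 over all libraries and -0.06 with the library labelled C3 KO 4 left out. The ratio of Esrp1 to Esrp2 in FPKM was 0.568, 0.496, 0.643 and 0.615 in S1pr1 KO lungs, 0.488, 0.482, 0.474 and 0.412 in C3 KO lungs, and 0.495, 0.526, 0.366 and 0.407 in WT lungs. The lowest ratio in S1pr1 KO, 0.496 in the library labelled S1pr1 KO 2, was just above the highest in C3 KO, 0.488. Through that library S1pr1 KO overlapped with WT. Neither gene alone separated S1pr1 KO from C3 KO, and no share over other gene pairs was computed. The table holds gene totals, so exon use itself was not measured.

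Grhl2 (chr15:37233280-37363813, plus strand), a grainyhead-like factor that maintains junction genes such as Cdh1 and Cldn4, measured 27.6, 21.8, 24.3 and 32.0 CPM in S1pr1 KO lungs. Its levels were 24.0, 20.9, 23.5 and 28.8 CPM in C3 KO lungs and 23.6, 23.1, 26.9 and 23.2 CPM in WT lungs. The WT libraries lay inside the range of the S1pr1 KO libraries. The log2 fold change was 0.13 in S1pr1 KO against WT (95% interval -0.14 to 0.39). It came to 0.03 without S1pr1 KO library 4 and to 0.21 without the library labelled S1pr1 KO 2. The C3 KO value against WT was 0.01 (95% interval -0.26 to 0.27), and -0.08 with the library labelled C3 KO 4 left out.

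Ovol1 (chr19:5599164-5610674, minus strand), a zinc-finger repressor that acts in epithelial differentiation, was the lowest and most variable member, with 46 to 136 reads per library and a coefficient of variation of 35.4%. Its levels were 1.63, 2.41, 1.62 and 1.72 CPM in S1pr1 KO lungs, 1.62, 1.58, 1.28 and 2.12 CPM in C3 KO lungs, and 1.47, 3.73, 2.78 and 1.67 CPM in WT lungs. WT libraries 2 and 3 were above all others. WT library 4 was within both knockout ranges, and WT library 1 was within the C3 KO range and below every S1pr1 KO library. Against WT, the Ovol1 values were -0.39 for S1pr1 KO, with an SE of 0.29 and an edgeR adjusted p of 0.529, and -0.54 for C3 KO, with an SE of 0.29 and an edgeR adjusted p of 0.522. Without WT library 2 these values were -0.09 and -0.25. Leaving out the library labelled S1pr1 KO 2 gave -0.54 for S1pr1 KO, and leaving out C3 KO 4 gave -0.69 for C3 KO. WT library 2 also held the highest levels of Grhl3 (5.16 CPM), of Krt5 (39.6 CPM) and of Krt14 (12.04 CPM). Levels of Grhl3 were 0.683 to 0.757 CPM in S1pr1 KO, 0.615 to 1.04 CPM in C3 KO and 0.725 to 0.996 CPM in the other WT libraries. Grhl3 is an epidermal relative of Grhl2, and Krt5 and Krt14 encode keratins of basal epithelial cells. Both keratins were chosen after their values were seen. Their part in the Ovol1 values was not tested.

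**Figure D3:**
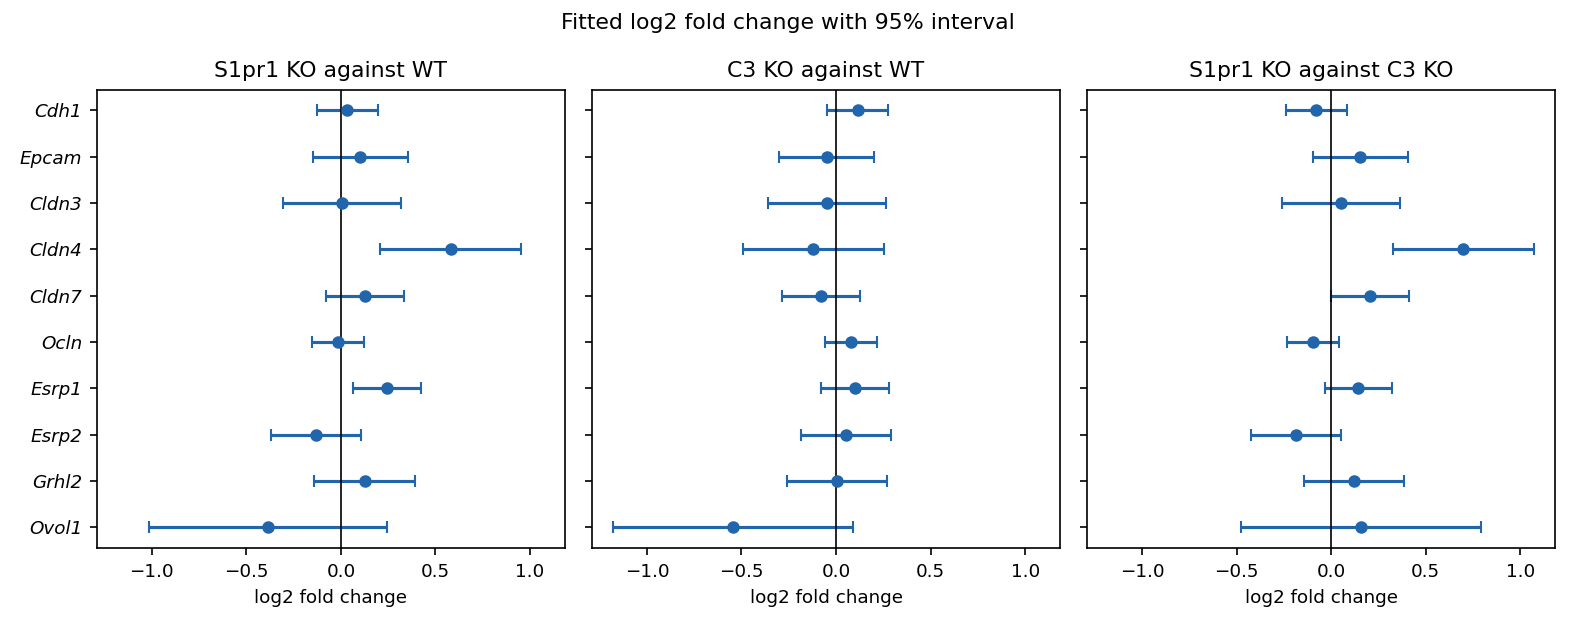
Fitted log2 fold change of each gene (point) with its 95% interval (bar) for each knockout against WT and for S1pr1 KO against C3 KO. The intervals of Cldn4 (0.21 to 0.95) and Esrp1 (0.07 to 0.42) lie above 0 in S1pr1 KO against WT without passing the adjusted threshold, and every interval includes 0 in C3 KO against WT.

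Over the 10 genes the median log2 fold change was 0.07 in S1pr1 KO against WT, with 7 values above 0 and 3 below, and the median over all genes tested was -0.00. In C3 KO against WT it was -0.02, with 5 above and 5 below, against a median over all genes of -0.00. Between S1pr1 KO and C3 KO the median was 0.13, with 7 above and 3 below, against 0.00 over all genes. Of the members, 8 had a coefficient of variation over the 12 libraries under the median of all genes tested, which was 15.8%. The exceptions were Cldn4 at 28.5% and Ovol1, the members with the fewest reads. The genes compared were not matched for level.

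Much of the spread lay between libraries of the same group. The library labelled C3 KO 4 had 9 of the 10 genes above their own mean over the 12 libraries, and it held the highest value of 3 of them, Cdh1, Cldn3 and Esrp2. S1pr1 KO library 4 held the highest value of 5 genes, and C3 KO library 3 the lowest value of 4. The median coefficient of variation of the members within a group was 10.9% in S1pr1 KO, 14.4% in C3 KO and 8.22% in WT lungs. With the library labelled C3 KO 4 left out it was 6.28% in C3 KO lungs. In that library the mean log2 CPM over 8 endothelial markers was 8.504, and the rest of the group had 8.856 to 8.998. Over 8 leukocyte markers it was 5.25, and 5.79 to 6.34 in the rest, and over 12 ciliated cell markers it was 5.89, and 5.32 to 5.62 in the rest. None of these marker genes was at 0 in any library. The other lists were mixed in C3 KO 4. Alveolar type 2 markers were at 10.13 (9.92 to 10.05 in the rest) and club and secretory markers at 9.23 (8.18 to 9.11). Alveolar type 1 markers were lower, at 8.995 (9.013 to 9.050). Inside the range of the rest lay mesothelial (5.17, 4.86 to 5.41), mammary (-0.67, -0.73 to 0.42) and proliferation genes (2.65, 2.13 to 2.80). The part of any list in the values of the 10 genes was not tested.

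**Figure D4:**
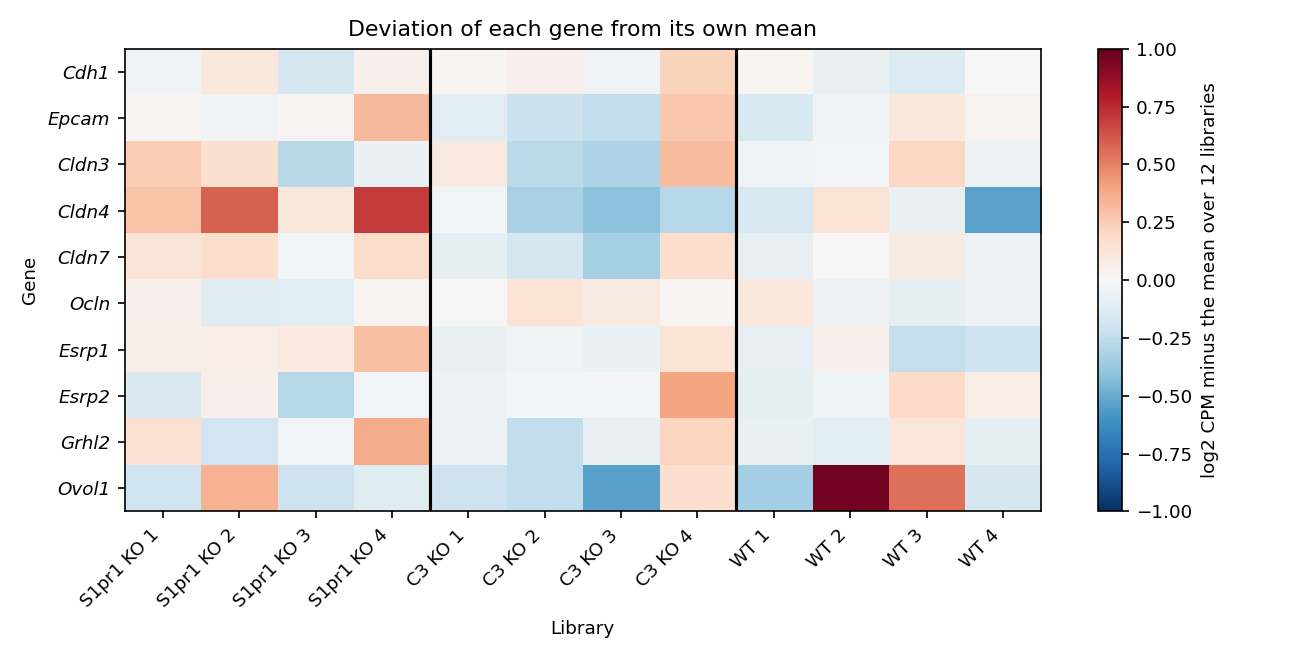
Deviation of each gene from its own mean over the 12 libraries, as log2 CPM (red above, blue below), with the libraries of S1pr1 KO, C3 KO and WT from left to right. The library labelled C3 KO 4 is above the mean for 9 of 10 genes, and Cldn4 is above its mean in all 4 S1pr1 KO libraries.

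Across the 12 libraries, 36 of the 45 pairs of members correlated positively in log2 CPM, with a median Pearson r of 0.322, and of 0.420 after each group's mean was subtracted. Of the 45 permutation tests of r (100000 resamples, two-sided), 2 had an adjusted p under 0.05. Spearman rho was tested and adjusted in the same way over the 45 pairs, and only Epcam and Cldn7 passed by it. This pair had an r of 0.828 and a Spearman rho of 0.846 (permutation p = 0.00078 and 0.00097, adjusted p = 0.0175 and 0.0436). Without the 2 libraries farthest from the median of Epcam, r was 0.785, and after subtraction of group means it was 0.801. Epcam and Grhl2 passed by r only, with an r of 0.845 and a rho of 0.699 (permutation p = 0.00052 and 0.0145, adjusted p = 0.0175 and 0.195). Their r was 0.606 without 2 libraries and 0.837 after subtraction of group means. The points share the tissue and its mixture of cells.

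Of the paralogs, Cldn3 and Cldn4 did not follow each other closely, nor did Esrp1 and Esrp2. Cldn3 and Cldn4 had an r of 0.257 and a rho of 0.273 (permutation p = 0.417 and 0.391, adjusted p for r = 0.553), with an r of 0.370 without 2 libraries. Esrp1 and Esrp2 had an r of -0.131 and a rho of -0.154 (permutation p = 0.688 and 0.639, adjusted p for r = 0.837), with an r of 0.0925 without 2 libraries. After subtraction of group means r was positive for Esrp1 and Esrp2, and also for Cldn3 and Cldn4. Cldn7 was closer to both of the other claudins. Cldn3 and Cldn7 had an r of 0.737 and a rho of 0.580 (permutation p = 0.00618 and 0.0515, adjusted p for r = 0.0927). Their r was 0.653 without 2 libraries and 0.837 after subtraction of group means. Cldn4 and Cldn7 had an r of 0.661 and a rho of 0.657 (permutation p = 0.0185 and 0.0233, adjusted p for r = 0.167). Their r was 0.464 without 2 libraries and 0.432 after subtraction of group means. The lowest value was that of Ocln and Ovol1, with an r of -0.597 and a rho of -0.685 (permutation p = 0.0392 and 0.0181, adjusted p for r = 0.221), and an r of -0.560 without 2 libraries.

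**Figure D5:**
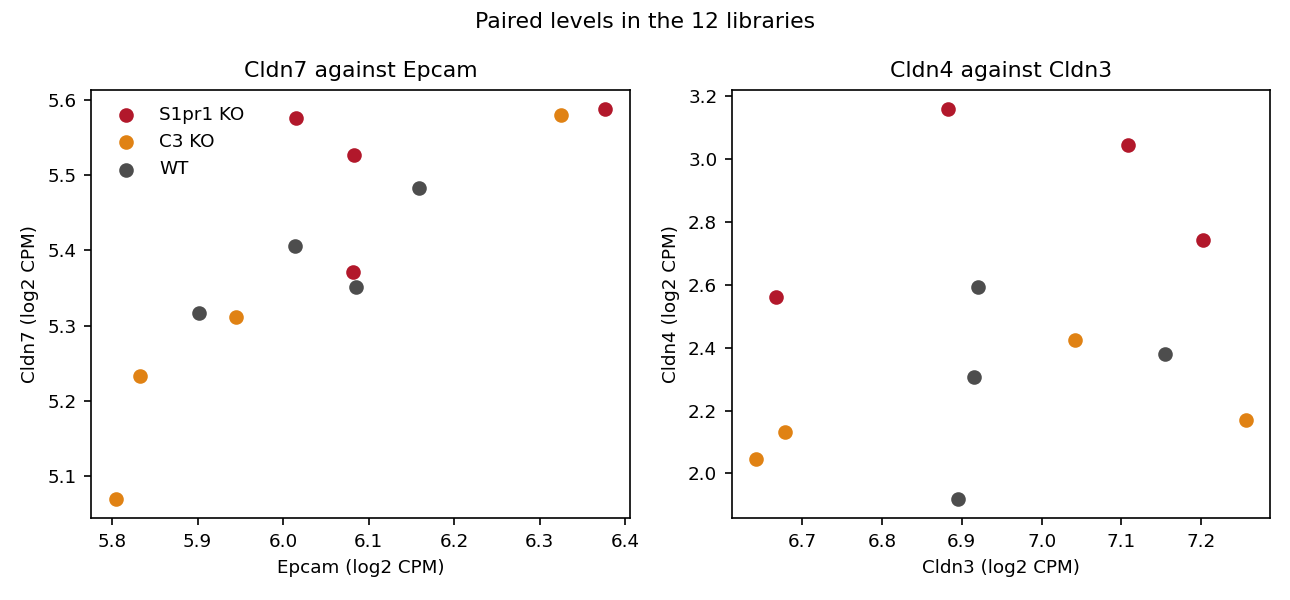
Log2 CPM of Cldn7 against Epcam (left) and of Cldn4 against Cldn3 (right), 1 point per library, coloured as S1pr1 KO, C3 KO and WT. Cldn7 and Epcam run together over the 12 libraries (r = 0.828), whereas Cldn4 has no such relation to Cldn3 (r = 0.257) and S1pr1 KO libraries lie highest on its axis for a like level of Cldn3.

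Of 14256 protein coding genes with a mean of at least 1 CPM, those most like each member in log2 CPM over the 12 libraries are given here as a description. The 3 nearest to Cldn3 were Arhgef5 (r = 0.961, rho = 0.930), Lrrc41 (r = 0.943, rho = 0.916) and Marveld3 (r = 0.927, rho = 0.881), the last a tight junction protein related to occludin. Epcam was nearest to Slc44a4 (r = 0.932, rho = 0.930) and Ak9 (r = 0.930, rho = 0.888). Cldn7 was nearest to Ffar4 (r = 0.928), Spata6l (r = 0.926) and Bok (r = 0.906), and Cldn4 to Sbspon (r = 0.910), Nipsnap2 (r = 0.896) and Ak1 (r = 0.895). Esrp1 was nearest to Me2 (r = 0.911) and Esrp2 to Rasl11a (r = 0.923). Cdh1 was nearest to Sdf2l1 (r = 0.911), Grhl2 to 9130230L23Rik (r = 0.921), Ocln to Paqr8 (r = 0.907) and Ovol1 to Sytl1 (r = 0.895). No gene stood among the nearest 3 of more than 1 member.

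Promoter windows from RefSeq (GRCm38.p6) were at hand for 5 of the members, Cldn3, Cldn4, Cldn7, Ocln and Epcam, as 7 windows. The windows of the pair that ran together, Epcam and Cldn7, and of the claudin neighbours that did not, Cldn4 and Cldn3, are shown so that their E-boxes can be compared. For Cldn7 only the window with E-boxes is shown, and its other window had none. An E-box of the type bound by Zeb and Snail repressors was searched as CACCTG on both strands (CAGGTG on the other) in the 250 bases before each start, and is in capitals.
Epcam, chr17:87635729-87635978, plus strand: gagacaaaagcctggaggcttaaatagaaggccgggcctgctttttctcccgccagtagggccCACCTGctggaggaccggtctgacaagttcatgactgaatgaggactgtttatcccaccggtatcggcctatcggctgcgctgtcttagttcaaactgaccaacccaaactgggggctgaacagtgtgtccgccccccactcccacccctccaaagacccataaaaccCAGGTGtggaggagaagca
Cldn7, chr11:69965171-69965420, plus strand: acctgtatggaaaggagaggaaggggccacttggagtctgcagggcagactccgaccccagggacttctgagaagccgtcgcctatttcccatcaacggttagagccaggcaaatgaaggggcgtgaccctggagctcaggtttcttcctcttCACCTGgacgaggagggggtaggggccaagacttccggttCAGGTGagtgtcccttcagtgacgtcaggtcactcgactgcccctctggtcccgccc
Cldn4, chr5:134946935-134947184, minus strand: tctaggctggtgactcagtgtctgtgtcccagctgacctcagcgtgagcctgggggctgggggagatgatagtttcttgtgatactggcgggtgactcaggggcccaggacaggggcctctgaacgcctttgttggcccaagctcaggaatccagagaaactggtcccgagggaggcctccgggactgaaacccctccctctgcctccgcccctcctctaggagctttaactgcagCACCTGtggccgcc
Cldn3, chr5:134985964-134986213, plus strand: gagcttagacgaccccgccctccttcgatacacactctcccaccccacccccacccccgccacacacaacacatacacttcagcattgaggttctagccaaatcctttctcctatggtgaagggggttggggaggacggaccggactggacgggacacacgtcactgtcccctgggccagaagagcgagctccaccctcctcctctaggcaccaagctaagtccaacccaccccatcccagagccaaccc
Counted back from the start, the E-boxes began at -187 and -19 in Epcam, at -97 and -57 in this window of Cldn7 and at -14 in Cldn4, and the Cldn3 window had none.

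At least 1 E-box was in 4 of the 7 windows and in 4 of the 5 genes, Ocln being the fourth, with 2 in the more downstream of its windows. The other windows of Cldn7 (chr11:69964529-69964778) and of Ocln had none. Of all 32851 windows of this length, 17.2% held it, and of 27025 genes 19.4% had it in a window. Epcam, Cldn7 and Ocln each had a window with 2, and 2.06% of all windows held 2 or more. A grainyhead-type motif, AACCNGTT on either strand, was in none of the 7 windows and in 1.79% of all windows. A match describes letters only, and these windows say nothing on whether a factor was bound.

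The other genes of these pathways, in 7 lists, were tested in the same fit, and edgeR called 1 gene among them. Genes that DESeq2 or limma voom called and edgeR did not are named with their values. In S1pr1 KO against WT, 1 of 16 genes of adherens junctions and desmosomes rose and none fell, where 1.35% of all genes tested were called. The gene was Dsg2, a desmosomal cadherin, at 17.8, 21.5, 19.8 and 20.2 CPM in S1pr1 KO lungs, 14.0, 12.2, 12.9 and 16.3 CPM in C3 KO lungs, and 11.6, 11.6, 12.4 and 10.8 CPM in WT lungs. Its levels in S1pr1 KO lungs lay above those of both other groups. Of all genes tested, 6.16% lay so above WT and 3.55% above C3 KO. Set against WT, the log2 fold change was 0.78, with an SE of 0.10 and an edgeR adjusted p of 0.0142, and the adjusted p was 0.0565 without WT library 4 and 0.0579 without S1pr1 KO library 4. Set against C3 KO, it was 0.52, with an SE of 0.10 and an edgeR adjusted p of 0.115. That last difference passed by DESeq2 (adjusted p 0.00097), by limma voom (adjusted p 0.0264) and by edgeR with the library labelled C3 KO 4 left out (0.60, adjusted p 0.0495).

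Median log2 fold changes of these lists were near 0. For the 16 adherens junction and desmosome genes the median was -0.04 in S1pr1 KO against WT and 0.01 in C3 KO against WT. Besides Dsg2, Nectin1, an adhesion molecule of adherens junctions, had -0.20 in S1pr1 KO against WT (edgeR adjusted p 0.171), and Afdn, its cytoplasmic partner, had 0.17 in C3 KO against WT (edgeR adjusted p 0.278; DESeq2 adjusted p 0.00144, past the threshold) and -0.12 in S1pr1 KO against C3 KO by DESeq2 (adjusted p 0.0493). Of 23 tight junction and polarity genes 21 were tested, none was called in either knockout, and their medians were 0.02 and 0.06. Among them the polarity gene Crb3 had -0.18 in S1pr1 KO against WT (edgeR adjusted p 0.171), and Pard3 had 0.14 in C3 KO against WT (edgeR adjusted p 0.420). Cldn6 and Cldn9 were below the filter, at most 0.439 and 0.192 CPM in any library.

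Of 13 further epithelial transcription factors 12 were tested and none was called, with medians of 0.07 in S1pr1 KO and -0.05 in C3 KO against WT. Elf3, an epithelial ETS factor, had 0.45 in S1pr1 KO against WT (edgeR adjusted p 0.205), and its relative Ehf had 0.47 in C3 KO against WT (edgeR adjusted p 0.383). Grhl3 had -1.41 in S1pr1 KO and -1.24 in C3 KO against WT (edgeR adjusted p 0.202 and 0.443), and -0.23 and -0.05 without WT library 2. None of 15 epithelial surface, protease and keratin genes was called, with medians of 0.11 and 0.04. Krt8, a keratin of simple epithelia, had 0.29 in S1pr1 KO against WT (edgeR adjusted p 0.239), and the membrane protease gene Prss8 had 0.25 in C3 KO against WT (edgeR adjusted p 0.354).

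None of 8 genes with exons known to be regulated by Esrp proteins was called at the level of the whole gene. Their medians were -0.05 in S1pr1 KO and 0.05 in C3 KO against WT, and the lowest p in both was that of the kinase gene Slk, with log2 fold changes of 0.13 and 0.17 (edgeR adjusted p 0.284 and 0.358). Of 7 splicing regulators of mesenchymal exons 6 were in the table, and none was called, with medians of 0.09 and 0.06. Mbnl2, of the muscleblind family, had log2 fold changes of 0.11 and 0.14 (edgeR adjusted p 0.251 and 0.354).

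None of 10 repressors of the epithelial state and mesenchymal genes was called by edgeR, with medians of -0.00 in S1pr1 KO and 0.01 in C3 KO against WT. Zeb1, the repressor of Cdh1, measured 143, 114, 140 and 140 CPM in S1pr1 KO lungs, 126, 143, 131 and 101 CPM in C3 KO lungs, and 126, 140, 122 and 124 CPM in WT lungs. The 3 groups overlapped, and the lowest value was in the library labelled C3 KO 4, which was highest for Cdh1. Its relative Zeb2 measured 126, 102, 137 and 136 CPM in S1pr1 KO lungs, 126, 144, 161 and 130 CPM in C3 KO lungs, and 146, 130, 110 and 134 CPM in WT lungs, without a low value in C3 KO 4. Both were chosen after their values were seen, and a link of either to Cdh1 was not tested. The library labelled C3 KO 4 also had the lowest mean of the endothelial markers, 8.504 log2 CPM. Cdh2 (N-cadherin) averaged 12.7 ± 3.54 CPM in S1pr1 KO and 7.31 ± 1.06 CPM in WT lungs (SD, n = 4 each), a log2 difference of 0.79 with an SE of 0.24. Its edgeR adjusted p was 0.114 and that of DESeq2 was 0.0262, the only call in this list.

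Markers of the epithelia that could carry the 10 genes were read beside them. Of 12 ciliated cell markers, 3 rose in S1pr1 KO against WT by edgeR and none fell, where 1.35% of all genes tested were called. The 3 were Ccdc153 (log2 fold change 0.89, edgeR adjusted p 0.0295), Mlf1 (0.78, 0.0358) and Ccdc113 (0.64, 0.0477), and each lost the call when single libraries were left out. The median over the list was 0.51. DESeq2 called 5 of the 12 and limma voom 6, all higher, where they called 6.32% and 4.59% of all genes. Without both libraries that went against their labels edgeR called 6 of the 12, all higher, where 2.31% of all genes were called. With only the library labelled S1pr1 KO 2 left out it called 2, among 128 genes called in all. With only the library labelled C3 KO 4 left out, which is outside this comparison, it called 5, among 571 genes called in all. The mean log2 CPM of the list was 5.78 to 6.12 in S1pr1 KO, 5.32 to 5.89 in C3 KO and 5.08 to 5.64 in WT lungs. By this mean S1pr1 KO lay above WT, as Esrp1 did in CPM but not in FPKM, and overlapped with C3 KO. No marker of the list was at 0 in any library. None of 10 alveolar type 2 markers was called by edgeR, with a median of -0.11 and a range of 9.74 to 9.95 in S1pr1 KO, 9.92 to 10.1 in C3 KO and 9.88 to 10.1 in WT lungs. Abca3, the lipid transporter of lamellar bodies, had -0.39 in S1pr1 KO against WT and passed by DESeq2 (adjusted p 0.012) and by edgeR without the library labelled C3 KO 4 (adjusted p 0.0425). It did not pass by edgeR without the library labelled S1pr1 KO 2, nor with both of these libraries left out. None of 10 alveolar type 1 markers (median -0.10) and none of 10 club and secretory cell markers (median 0.08) was called by edgeR in S1pr1 KO against WT, and DESeq2 called 1, Reg3g of the secretory list (2.72, adjusted p 0.0102).

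Of 12 markers of mammary epithelium 10 were tested, none was called by edgeR, and the median in S1pr1 KO against WT was 0.44. Their mean log2 CPM was -0.44 to 1.43 in S1pr1 KO, -0.73 to 0.42 in C3 KO and -0.59 to 1.14 in WT lungs, ranges that overlapped. Of the milk protein genes, Csn1s1 was at 0 in 3 libraries, Csn2 in 1 and Wap in 6, and their highest levels were 0.833, 0.916 and 0.199 CPM. Csn3 was at 0 in no library, with 0.890, 1.86, 19.0 and 25.4 CPM in S1pr1 KO lungs, 0.174, 3.75, 2.11 and 0.102 CPM in C3 KO lungs, and 8.03, 8.23, 3.07 and 0.247 CPM in WT lungs. It was highest in S1pr1 KO libraries 3 and 4, and the groups overlapped (S1pr1 KO against WT, edgeR adjusted p 0.615). DESeq2 called 1 gene of the list, Esr1, in S1pr1 KO against C3 KO (0.65, adjusted p 0.00425). Csn3, Esr1 and Reg3g were chosen after their values were seen. None of 6 proliferation genes was called, with a median of 0.45 in S1pr1 KO against WT. The part of ciliated, mammary or proliferating cells in the Cldn4 and Esrp1 values was not tested.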

How the data were processed

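Whole-lung RNA in RNAlater was extracted with QIAzol and made into libraries with Illumina protocols by a commercial provider, per the labels' protocols. The authors deposited read counts per gene and FPKM values, 1 column per library. CASAVA, STAR, GRCm39 and mm39 are named without versions in the submitters' processing notes. The counting tool, strand setting and annotation release were not given in the sources used here. Genes that overlap or are near-identical may therefore share or split reads. No 2 libraries of a group agreed within sampling noise (lowest chi-square per degree of freedom 13.8).

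Counts of 20229 genes that passed filterByExpr were fitted with edgeR 4.0.16 (R 4.3.3), TMM scaling and a mean for each of the 3 groups (9 residual degrees of freedom). The quasi-likelihood p-values were Benjamini-Hochberg adjusted over all genes tested. SE is the absolute log2 fold change over the square root of F. Log2 CPM used a prior count of 2. The fit was tested on simulated data. Total counts, 32274797 to 53063470, set the precision. The deposited FPKM values served to compare genes and, in limma 3.58.1, as an alternative. DESeq2 1.42.0, limma voom, other scalings and filters, and leaving out libraries were the other alternatives.

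The 10 genes and all lists were chosen with earlier results of these data known. Named were every member, the genes of lowest p of each list (up to 3 in S1pr1 KO and 2 in C3 KO against WT) and the 3 genes most like each member. Only some of these are printed.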

Additional observations from a re-analysis of the deposited data

Results flagged for a closer look

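In 7 of the 30 groups of 4 libraries (10 genes in 3 genotypes), 1 library stood apart from the other 3 by a gap that, over the group's range, was past Dixon's 95% critical value. Chance flags about 1 in 20 groups, and the genes share libraries, so the flags are not independent. Library 4 of S1pr1 KO stood apart for Epcam, at 83.0 CPM against 64.6 to 67.7 CPM, and for Esrp1, at 35.7 CPM against 30.3 to 31.1 CPM. The library labelled C3 KO 4 stood apart for Esrp1, at 31.9 CPM against 27.6 to 28.1 CPM, and for Esrp2, at 53.3 CPM against 39.0 to 40.2 CPM. WT library 3 stood apart for Cldn3, at 142 CPM against 119 to 121 CPM, and for Grhl2, at 26.9 CPM against 23.1 to 23.6 CPM. The library labelled S1pr1 KO 2 stood apart for Ovol1, at 2.41 CPM against 1.62 to 1.72 CPM. Every flagged library was the highest of its group.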

How the results depend on the processing

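Counts of genes called depended on the tool and on single libraries. With edgeR they were 274 in S1pr1 KO against WT, 2 in C3 KO against WT and 0 in S1pr1 KO against C3 KO. In that order they were 1279, 172 and 317 with DESeq2, 928, 21 and 36 with voom, and 473, 31 and 3 without both libraries that went against their labels. On log2(FPKM + 1) they were 171, 6 and 7, on log2(FPKM + 0.1) 150, 6 and 6, and on log2(FPKM + 1) with no filter 64, 3 and 1. Without the filter on low counts S1pr1 KO against C3 KO gave 15, and with only the groups compared C3 KO against WT gave 1. Leaving out each library gave 2 to 571, 1 to 32 and 0 to 13. In S1pr1 KO against WT the extremes were 2 without S1pr1 KO library 4, 5 without WT library 4 and 571 without the library labelled C3 KO 4.

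Of the members, Cldn4 passed the threshold with DESeq2 only, and kept its direction in both S1pr1 KO comparisons under every alternative run (0.44 to 0.69 against WT, 0.52 to 0.80 against C3 KO). Of 330 member values under other settings, 14 changed sign, all near 0, and the cause was not tested. In C3 KO against WT these were Esrp2 (-0.0082 with voom, -0.063 without both libraries) and Grhl2 (-0.021 and -0.083). In S1pr1 KO against WT these were Cdh1 (-0.0063 with voom, -0.0054 without both libraries), Ocln (0.012 without both) and Cldn3 (-0.082 with voom, -0.00049 with no filter, -0.0085 and -0.0087 on FPKM + 1 and FPKM + 0.1, -0.0085 on FPKM + 1 with no filter, -0.040 without both). In S1pr1 KO against C3 KO it was Cldn3 (-0.013 with voom). Leaving out 1 library changed the sign of 23 of 360 values. The ranges over the libraries left out were, in C3 KO against WT, -0.18 to 0.014 for Epcam, -0.17 to 0.043 for Cldn3, -0.063 to 0.11 for Esrp2 and -0.083 to 0.079 for Grhl2. In S1pr1 KO against WT they were -0.0056 to 0.087 for Cdh1, -0.077 to 0.097 for Cldn3 and -0.047 to 0.029 for Ocln, and in S1pr1 KO against C3 KO -0.038 to 0.18 for Cldn3 and -0.0024 to 0.30 for Ovol1. No paired analysis was possible because the numbers in the titles differ for every library and pair none across groups. Depth limits Ovol1 most, with 46 to 136 reads per library.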
